A study of Bos taurus with 16 samples.

Results

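ALOX12, PLA2G4D and ELOVL4 are 3 genes of barrier lipid and lipoxygenase metabolism that were followed here in the papillae of the bovine rumen wall. They were chosen by symbol, as the rows of the coverage table that hold an exon of one of them, and they are 3 of 12010 genes with an exon region. Earlier results on the same 16 libraries were known when they were chosen: ALOX12 had been named for its difference by feed intake. The values by gain and intake given below are therefore a description, without a test. The libraries came from 16 crossbred steers aged 344 ± 48 days, 1 animal per library, with 4 animals in each of 4 groups. These are named here by gain and then intake, as HGHI (both high), HGLI (gain high, intake low), LGHI (gain low, intake high) and LGLI (both low). The groups are quadrants of gain and of dry matter eaten, not treatments. All animals ate the same ration of 57.35% corn, 30% distillers grains, 8% alfalfa, 4.25% of a commercial supplement and 0.4% urea, without restriction. The study asked how rumen transcripts vary with intake and gain.

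The rumen papilla is covered by a stratified, cornifying epithelium, and lipids laid down in its upper layers limit the passage of water and solutes, as they do in skin. Phospholipases A2 free fatty acids such as arachidonic acid from membrane phospholipids. Lipoxygenases add oxygen to fatty acids and give signalling lipids or, in skin, barrier precursors. Elongases lengthen fatty acids, and the longest ones are built into the ceramides of the barrier. Among these separate steps PLA2G4D, a cytosolic phospholipase A2 that is found in human epidermis, would stand at the release step. ALOX12, the arachidonate lipoxygenase that is best known from human platelets and skin, would stand at the oxidation step. ELOVL4 elongates very long fatty acids, and its loss damages the epidermal barrier in mice.

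Levels are read depth, averaged over the bases of a region, which the authors scaled to a near-equal total per library, and a gene's level is that of its best-covered exon region. The libraries held an estimated 11.9 to 21.2 M reads, of which the mitochondrial genome took 8.75% to 28.0%. Coverage of first exons was thin in 5 libraries (HGHI replicate 4, LGLI replicate 3 and HGLI replicates 2 to 4). The first-exon index, the mean log2 ratio of first to later exons over 763 genes, was -2.89 to -2.09 in these 5 and -1.28 to -0.35 in the other 11. The index averaged -1.75 ± 0.849 at high gain, against -0.804 ± 0.852 at low gain (SD, n = 8 each, exact permutation p = 0.0409, two-sided, Benjamini-Hochberg 0.0817 over 4 tests, 2 of which were within the 11 libraries and are not used). Among the 11 better covered libraries it was -1.004 ± 0.238 at high gain (n = 4) and -0.506 ± 0.143 at low gain (n = 7), a description only, since these libraries were picked by the index itself. By intake it was -0.986 ± 0.787 at high intake and -1.57 ± 1.07 at low intake (n = 8 each, exact permutation p = 0.240, Benjamini-Hochberg 0.320). The same 11 libraries had -0.719 ± 0.239 at high intake (n = 7) and -0.633 ± 0.432 at low intake (n = 4). Epithelial markers were present in the labelled tissue, at widely differing levels. The highest were the basal keratins KRT5, KRT14 and KRT15, which averaged 190.0, 392 and 154 over the 16 libraries. IVL, the gene of the envelope protein involucrin, averaged 397. Others on the same lists ran from LOR at 0.0506 to TGM3 at 55.3, with KRT10 at 1.04. Stromal genes were also well covered, such as COL3A1 at 98.4 and SPARC at 88.1.

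ALOX12 was read from a region of 650 bases in exon 14, the last of its exons, at chr19:27434136-27434785 (UMD3.1). Its level was 9.54, 4.83, 13.94 and 7.47 in HGHI, and 5.46, 3.91, 3.87 and 3.14 in HGLI. In LGHI it was 7.14, 7.38, 3.36 and 9.96, and in LGLI 3.1, 2.55, 1.35 and 4.07. The 2 high-intake groups stood above the 2 low-intake groups in order of their means, with overlapping ranges. The means ran from 8.95 ± 3.85 in HGHI over 6.96 ± 2.72 in LGHI and 4.10 ± 0.976 in HGLI to 2.77 ± 1.13 in LGLI (SD, n = 4 each). The step between the 2 high-intake groups was smaller than their SDs, and each pair of neighbours in this order overlapped in range.

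By intake, ALOX12 averaged 7.95 ± 3.26 at high intake and 3.43 ± 1.21 at low intake (SD, n = 8 each), a log2 difference of 1.17 (SE 0.29, a 2.25-fold ratio on the log2(value + 0.1) scale). Of the 8 high-intake animals, 6 stood above the highest low-intake animal, and the other 2, HGHI replicate 2 at 4.83 and LGHI replicate 3 at 3.36, lay among the low-intake values. The intake difference in log2 level was 1.03 among high-gain animals and 1.30 among low-gain animals, and these differed by -0.27 (SE 0.58). By gain the level averaged 6.52 ± 3.67 in high-gain animals and 4.86 ± 2.96 in low-gain animals, a log2 difference of 0.49 (SE 0.29). As a background to these values, no gene of the 9445 tested passed for intake, gain or their interaction (limma, Benjamini-Hochberg threshold 0.05, 0% in each), and no p is given for the 3 genes. Before adjustment p was under 0.05 for intake in 782 genes (8.28% of tested genes, made up of 2.47% higher and 5.81% lower at high intake). For gain it was so in 501 genes (5.3%, made up of 0.974% higher and 4.33% lower at high gain), and for the interaction in 49 (0.519%, with 0.148% having a larger intake difference at high gain). None of the 3 genes had 8 libraries wholly apart from the other 8, which 0.0741% of tested genes had by intake and 0.0318% by gain. The smallest adjusted p over all genes was 0.311 for intake, 0.636 for gain and 1 for the interaction. With the 5 libraries of thin first exons left out, which leaves 1 animal in HGLI, the intake difference of ALOX12 was 0.83 (SE 0.37).

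PLA2G4D was read from the 3′ end of the gene, where a region of 6860 bases at chr10:37599756-37606615 joins exons 17 to 20 with the introns between them. Its level was 6.80, 2.08, 2.75 and 4.96 in HGHI, and 2.35, 2.23, 1.15 and 0.76 in HGLI. In LGHI it was 1.77, 1.23, 4.15 and 2.76, and in LGLI 1.02, 1.39, 0.52 and 1.25. The order of the group means was that of ALOX12: 4.15 ± 2.15 in HGHI, 2.48 ± 1.28 in LGHI, 1.62 ± 0.789 in HGLI and 1.05 ± 0.382 in LGLI (SD, n = 4 each). The steps between neighbours were smaller than the larger SD of each pair.

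At high intake PLA2G4D averaged 3.31 ± 1.87, against 1.33 ± 0.651 at low intake (SD, n = 8 each), a log2 difference of 1.20 (SE 0.35, a 2.29-fold ratio). All 8 high-intake animals stood above the low-intake median of 1.20, and 5 of them above the highest low-intake animal. The intake difference was 1.29 among high-gain and 1.11 among low-gain animals, and these differed by 0.18 (SE 0.70). By gain the level was 2.89 ± 2.02 in high-gain animals and 1.76 ± 1.16 in low-gain animals, which is a log2 difference of 0.62 (SE 0.35). With the 5 libraries of thin first exons left out, the intake difference was 0.68 (SE 0.41), against 1.20 in all 16 libraries.

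ELOVL4 was read from its last exon, exon 6, over 2206 bases at chr9:19841953-19844158, where its levels lay apart by gain more than by intake. Its level was 1.16, 1.09, 3.40 and 1.55 in HGHI, and 1.49, 1.99, 4.07 and 0.30 in HGLI. In LGHI it was 0.49, 0.65, 0.56 and 0.73, and in LGLI 0.87, 1.02, 0.68 and 0.70. Of the 8 high-gain animals, 7 stood above all 8 low-gain animals, and the exception, HGLI replicate 4 at 0.30, was the lowest of all 16. No other high-gain level was below 1.09, and no low-gain level was above 1.02. The high-gain values were also more widely spread, with 3.40 and 4.07 as the only levels above 2.

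High-gain animals averaged 1.88 ± 1.25 and low-gain animals 0.713 ± 0.168 (SD, n = 8 each), a log2 difference of 1.02 (SE 0.40, a 2.03-fold ratio). The order of the group means was 1.96 ± 1.57 in HGLI, 1.80 ± 1.09 in HGHI, 0.818 ± 0.160 in LGLI and 0.608 ± 0.105 in LGHI (SD, n = 4 each). The 2 high-gain groups differed by less than their SDs, and the 2 low-gain groups by more than theirs, with overlapping ranges. By intake ELOVL4 averaged 1.20 ± 0.957 at high intake and 1.39 ± 1.20 at low intake, a log2 difference of -0.11 (SE 0.40). Without HGLI replicate 4 the gain difference was 1.35, and with the 5 libraries of thin first exons left out it was 1.02 (SE 0.35).

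**Figure D1:**
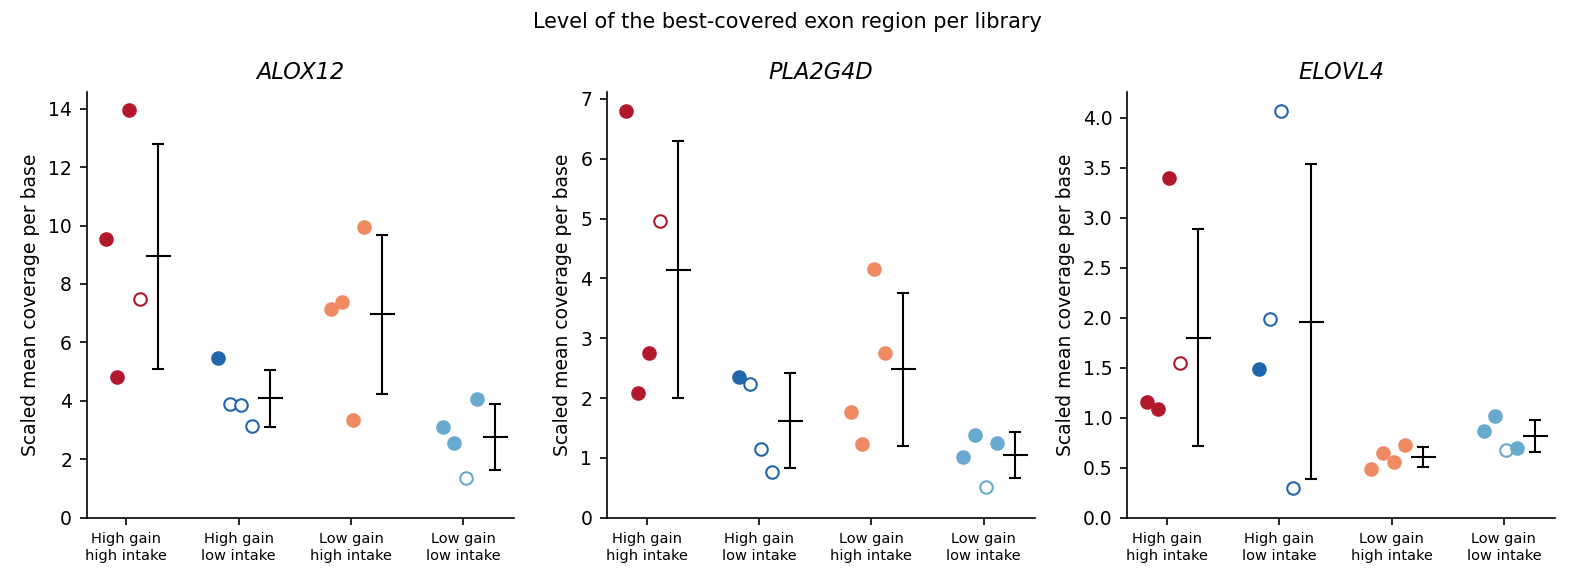
Level (scaled mean coverage per base, linear axis from 0) of the best-covered exon region of each gene in the 16 libraries, 4 per group, with the group mean and SD beside the points; open circles are the 5 libraries with thin first exons. The high-intake groups are higher for ALOX12 and PLA2G4D, and 7 of 8 high-gain libraries are higher for ELOVL4.

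The 3 genes were of middling to low level: 59.2% of tested genes had a lower mean than ALOX12 (5.69), 31.1% than PLA2G4D (2.32) and 18.2% than ELOVL4 (1.30). The reads behind these levels limit their precision. The best-covered region held an estimated 21.7 to 255 reads per library for ALOX12, 88.1 to 1261 for PLA2G4D and 18.4 to 272 for ELOVL4. These estimates cover counting only and not the spread between animals. In tissue pieces, fewer cells of a type and less RNA per cell cannot be told apart.

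ALOX12 and PLA2G4D had higher estimates at high intake in each exon region, over all 16 libraries. ALOX12 has 8 exon regions, and the log2 difference between high and low intake was positive in 8 of 8, at 0.38 to 2.09 (median 1.21). PLA2G4D has 15 exon regions, and it was positive in 15 of 15, at 0.28 to 2.01 (median 1.14). For ELOVL4 it was positive in 3 of 7 regions, at -0.35 to 0.49. Regions of 1 gene share libraries and are not replicates, and many of the 5′ regions hold few reads. Of the 5 libraries with thin first exons, only HGHI replicate 4 is from high intake. ALOX12 exon 8 was at 0 to 0.58 in these 5 and at 0.81 to 3.99 in the other 11. PLA2G4D exon 13 was at 0 to 0.29 and 0.46 to 1.89. In the last ALOX12 region the ranges overlapped, at 1.35 to 7.47 and 2.55 to 13.94. The part of thin coverage in the intake differences by region was not tested.

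In ALOX12, exon 10 showed the widest intake difference, with a mean of 3.65 at high intake and 1.02 at low intake. This exon was at 0 to 0.31 in the 5 libraries with thin first exons and at 1.26 to 7.62 in the other 11. Of those 5, only HGHI replicate 4 is from high intake, so the difference by intake is mixed with coverage. HGHI replicate 3 had the highest coverage in 7 of the 8 ALOX12 regions, among them 7.62 in exon 10, 3.99 in exon 8 and 4.10 over exons 11 to 14. The same animal was highest in 5 of the 7 ELOVL4 regions, with 2.62, 2.74, 3.82 and 3.49 over exons 2, 3, 4 and 5, and in 1 of the 15 PLA2G4D regions. In ELOVL4 exon 3 it shared the highest value with HGLI replicate 3. For PLA2G4D, HGHI replicate 1 was highest in 7 of 15 regions, with 3.09 in exon 16 and 1.89 in exon 13. The animals with the most ALOX12 and the most PLA2G4D coverage were thus different ones within the same group.

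**Figure D2:**
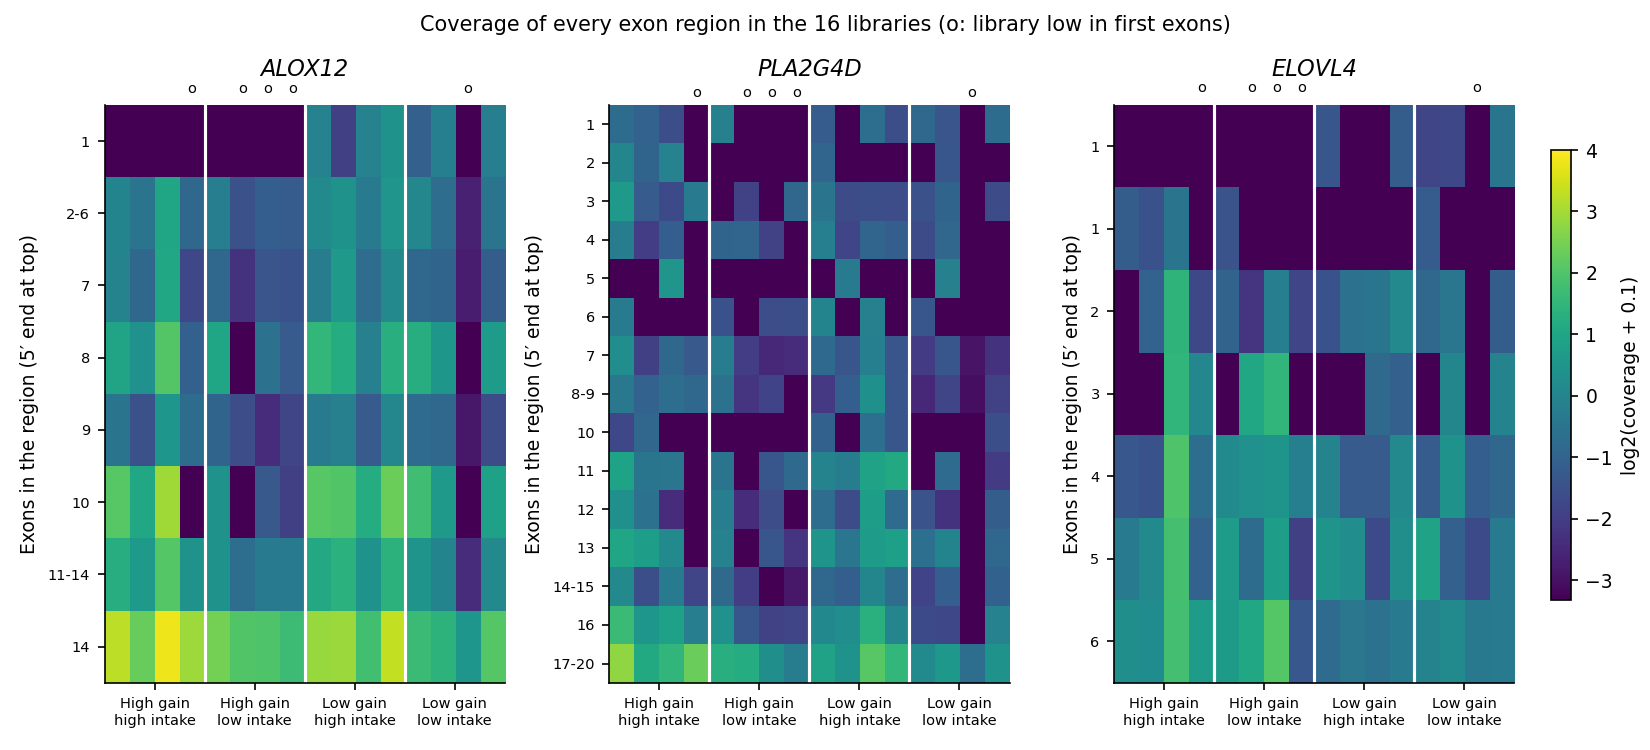
Coverage of every exon region of the 3 genes as log2(coverage + 0.1) (colour scale), with regions from the 5′ end at the top to the 3′ end at the bottom and the 16 libraries as columns in their 4 groups; the letter o marks libraries with thin first exons. Coverage is highest at the 3′ end, and in ALOX12 the first exon is at 0 in all 8 high-gain libraries.

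Between gain levels the sign of the difference varied among the exon regions of each gene. It turned towards the 3′ end in ALOX12, and it changed back and forth in PLA2G4D and ELOVL4. ALOX12 was higher at high gain in 2 of 8 regions, both at the 3′ end, with log2 differences of 0.14 over exons 11 to 14 and 0.49 in the last region. It was lower in the other 6, with -2.51 in exon 1 and -1.37 in exon 10. PLA2G4D was higher at high gain in 6 of 15 regions (-0.63 to 0.62). ELOVL4 was higher in 5 of 7 (-1.26 to 1.02), among them 0.75 in exon 3, 0.56 in exon 4 and 0.28 in exon 5. Over the length-weighted mean of all exon regions, the gain difference was 0.05 (SE 0.36) for ALOX12, 0.54 (SE 0.33) for PLA2G4D and 0.89 (SE 0.38) for ELOVL4. The means of the first-exon index were -1.75 (high gain) and -0.804 (low gain), as given above, and its part in these differences was not tested.

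The outermost regions of ALOX12 and ELOVL4 were covered at low gain alone, while those of PLA2G4D and the inner part of exon 1 in ELOVL4 were covered at both gain levels. The first exon of ALOX12 (225 bases, chr19:27421064-27421288) was listed at 0 in each of the 8 libraries from high gain. In low gain it was at 0.84, 0.16, 0.85 and 1.22 with high intake and at 0.37, 0.80, 0 and 0.77 with low intake, which is an estimated 27.9 reads in all. A count of 0 allows up to 3 reads, which is a level of 0.373 to 0.527 in a single high-gain library. ELOVL4 has a pair of regions in exon 1, which lie next to each other. The outer one (chr9:19881570-19881744) stood at 0 in each of 8 high-gain libraries and above 0 in 5 of 8 low-gain libraries, at 0.19 to 0.62. The inner one (chr9:19881447-19881553) was above 0 in 4 of 8 high-gain libraries, at 0.26 to 0.61, and in 1 of 8 low-gain libraries, at 0.34. The outer region rests on an estimated 7.29 reads, all at low gain, and the inner one on 4.57 reads at high gain and 0.856 at low gain. Exon 1 of PLA2G4D was above 0 in 4 of 8 high-gain and 6 of 8 low-gain libraries, with an estimated 7.94 and 8.32 reads.

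This pattern was wider than the 3 genes. Of 8542 first-exon regions of tested genes with a mean of at least 0.1, 148 (1.73%) were at 0 in all 8 high-gain libraries and above 0 in at least 5 low-gain libraries, and 0 showed the reverse. Of 66959 later-exon regions, 65 (0.0971%) showed that pattern and 16 (0.0239%) the reverse. The count was chosen after the first exons of ALOX12 and ELOVL4 had been seen.

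**Figure D3:**
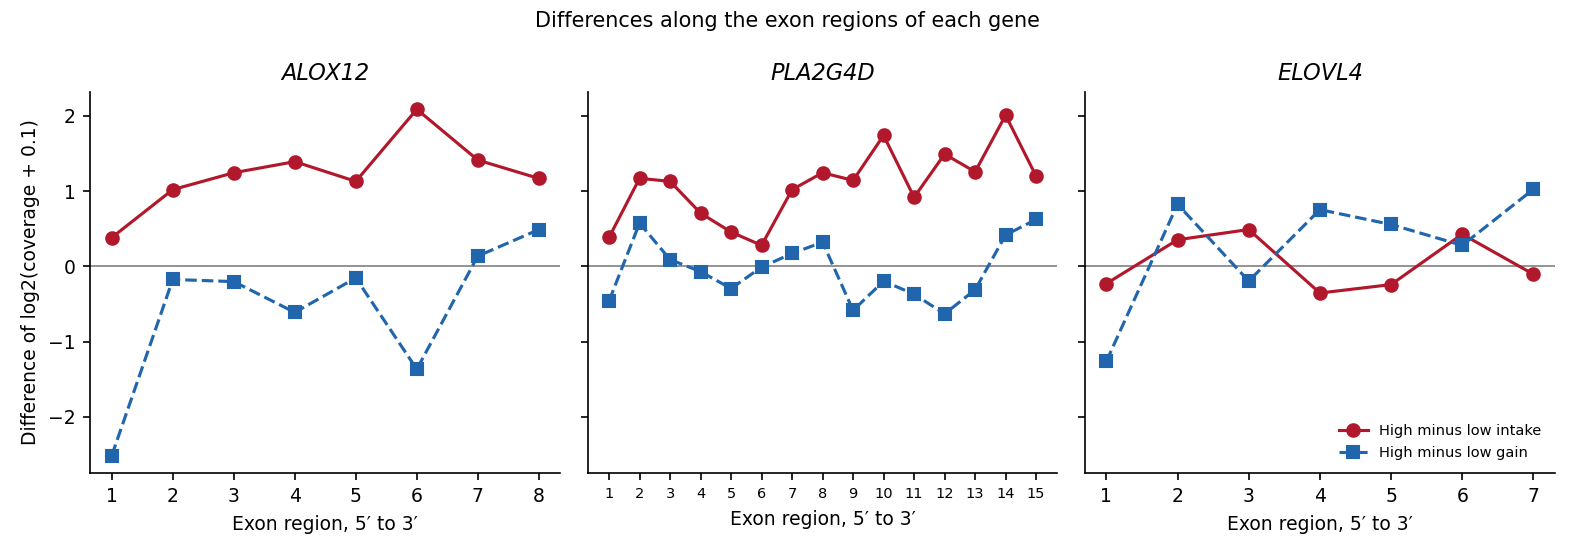
Difference of the group means of log2(coverage + 0.1) for high minus low intake (circles) and high minus low gain (squares) in each exon region, from the 5′ to the 3′ end of each gene. The intake line stays above 0 in all regions of ALOX12 and PLA2G4D, while the gain line crosses 0 in all 3 genes.

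No pair of the 3 genes passed a test of correlation within groups. After removal of the group means, ALOX12 and ELOVL4 had Pearson's r = 0.353 over 16 libraries (permutation p = 0.0897, Benjamini-Hochberg 0.269 over 3 pairs) and Spearman's rho = 0.368 (permutation p = 0.179, Benjamini-Hochberg 0.538). ALOX12 and PLA2G4D had r = 0.224 (permutation p = 0.452, Benjamini-Hochberg 0.579) and rho = 0.121 (permutation p = 0.682, Benjamini-Hochberg 0.682). PLA2G4D and ELOVL4 had r = 0.197 (permutation p = 0.579, Benjamini-Hochberg 0.579) and rho = 0.162 (permutation p = 0.606, Benjamini-Hochberg 0.682). Without the 2 libraries farthest from the median of the first-named gene, r was 0.407, 0.378 and -0.12 in the same order of pairs. In the 11 libraries with better covered first exons r was 0.516, -0.12 and -0.149. These p-values cannot show that the genes vary independently.

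The genes most like each member within groups, by Pearson's r of the log2 level over the 16 libraries, differed between the 3. For ALOX12 they were HSPB6 (r = 0.858), ERBB3 (0.832), FLT1 (0.821), IL1RN (0.821) and PDE8A (0.813). ERBB3 encodes a receptor for neuregulins, IL1RN encodes an interleukin receptor antagonist, and FLT1 is among the endothelial markers used below. The cell types behind these correlations were not tested. For PLA2G4D they were HSPA8 (r = 0.897), MANF (0.883), LYZ1 (0.882), HOXB3 (0.854) and DERL2 (0.819). HSPA8 is a constitutive chaperone, MANF and DERL2 act in the endoplasmic reticulum, and LYZ1 is a lysozyme gene, at a mean level of 759. HSPB6 and HOXB3 were thinly covered, at mean levels of 0.393 and 0.227. For ELOVL4 they were CTTNBP2NL (r = 0.809), SLC37A3 (0.780), FAF2 (0.773), LOC785585 (0.768) and RIN2 (0.765). In the 11 libraries with better covered first exons r remained at 0.796 to 0.955 for the 10 genes like ALOX12 and PLA2G4D. For ELOVL4 it was 0.583 for CTTNBP2NL, 0.363 for FAF2 and 0.252 for RIN2, against 0.784 for SLC37A3 and 0.725 for LOC785585. As a background, 6.26% of the other 9444 genes had r above 0.5 with ALOX12, 3.45% with PLA2G4D and 1.97% with ELOVL4. All these values share the same libraries and their coverage profile, and they are given without a test.

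Among 4 lists of related lipid genes no measured gene passed for intake or gain (limma, Benjamini-Hochberg over 9445 genes; adjusted p = 0.528 for each of the 12 genes with the smallest unadjusted p by intake and 0.847 for each of the 12 by gain). Levels below are means at high and low intake or at high and low gain (SD, n = 8 each). Over all tested genes, 49.6% were estimated higher at high intake. Of 21 tested lipoxygenase and prostanoid genes, 12 were estimated higher at high intake (median log2 0.08, against -0.01 over all tested genes), and 3 had an unadjusted p under 0.05, beside 8.28% of all genes. PTGES, the prostaglandin E synthase gene, was at 2.06 ± 0.795 and 0.688 ± 0.537 (log2 1.64, SE 0.42). EPHX3, an epoxide hydrolase that acts downstream of epidermal lipoxygenases in mice, was at 2.34 ± 0.547 and 1.35 ± 0.609 (0.90, SE 0.35). PTGR2, a prostaglandin reductase gene, was at 11.2 ± 7.93 and 19.5 ± 12.1 (-0.84, SE 0.38). The other lipoxygenase genes gave a range of levels. ALOX15B was the best covered, at 17.5 ± 7.36 at high intake and 14.5 ± 6.83 at low intake (a log2 difference of 0.28, SE 0.36, limma adjusted p = 0.639). ALOX12B, the epidermal lipoxygenase gene whose loss causes ichthyosis in humans, was at 1.05 ± 1.30 and 0.276 ± 0.262 (1.25, SE 0.73). ALOX12E and ALOX15 were listed at 0 in 15 of 16 libraries.

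Of 9 tested phospholipase A2 and patatin-like genes, 6 were estimated higher at high intake (median log2 0.71). An unadjusted p under 0.05 was found for 3, beside 8.28% of all genes. PLA2G4F, a paralogue of PLA2G4D, was at 11.02 ± 3.53 at high intake and 5.24 ± 2.98 at low intake (a log2 difference of 1.32, SE 0.47), and 8 of 8 animals at high intake exceeded the low-intake median. PLA2G4A, the widely expressed cytosolic phospholipase A2, lay the other way, at 2.74 ± 1.37 and 4.75 ± 2.05 (-0.80, SE 0.30). PNPLA1, which makes the acylceramides of skin in mice and humans, was at 5.04 ± 3.87 and 1.82 ± 1.58 (1.76, SE 0.77). With the 5 libraries of thin first exons left out, the list's median was -0.06 (with 1 library left out it ran from 0.37 without HGLI replicate 2 to 1.38 without HGHI replicate 4), and the difference of PLA2G4F was 0.49 and that of PNPLA1 0.51.

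Of 22 tested elongation and desaturation genes, 10 were estimated higher at high intake (median log2 -0.02). An unadjusted p under 0.05 was found for 1, beside 8.28% of all genes. ELOVL6, an elongase of long saturated chains, was at 5.88 ± 2.51 and 8.79 ± 3.34 (-0.58, SE 0.25), HSD17B12, a later enzyme of the elongation cycle, at 46.3 ± 20.0 and 62.8 ± 18.5, and ELOVL3 at 0.385 ± 0.349 and 0.669 ± 0.240. Of 24 tested ceramide genes, 11 had higher estimates (median -0.02), and 1 had an unadjusted p under 0.05, beside the same 8.28%. CERS3, the ceramide synthase that uses the longest fatty acids, was at 0.639 ± 0.477 and 0.308 ± 0.222 (0.84, SE 0.39), CERS1 at 7.77 ± 3.02 and 4.71 ± 3.01 (1.04, SE 0.53), and SPTSSA at 6.99 ± 4.55 and 9.79 ± 3.98. The difference was 0.47 for CERS3 and 0.19 for CERS1 with the 5 libraries of thin first exons left out. The sign of both medians depended on the setting, which gave -0.21 to 0.08 for elongation and -0.11 to 0.08 for ceramide genes.

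By gain, 3 of the 4 lists had a median below 0, while the 3 genes had estimates above 0 in their best-covered regions. Those regions lie at the 3′ end. Over all exon regions the gain difference was positive in 2 of 8 for ALOX12, 6 of 15 for PLA2G4D and 5 of 7 for ELOVL4. Some list genes were read further from the 3′ end, such as TECR in exon 2 of 9. The part of read position in this contrast was not tested. The median log2 difference was -0.13 for lipoxygenase and prostanoid genes (8 of 21 higher), -0.45 for phospholipases (2 of 9 higher), -0.22 for elongation and desaturation (8 of 22 higher) and 0.11 for ceramide genes (15 of 24 higher), against -0.04 over all tested genes. Of all tested genes, 46.1% were estimated higher at high gain. Over the settings the list medians ran from -0.25 to -0.02, from -0.48 to -0.03, from -0.24 to -0.02 and from -0.01 to 0.22 in the same order. With 1 library left out the phospholipase median ran from -0.80 (without LGLI replicate 3) to -0.13 (without LGLI replicate 4). Unadjusted p was under 0.05 for 1, 2, 0 and 1 genes in these lists, all lower, beside 5.3% of all genes. LTC4S, the leukotriene synthase gene, was at 0.159 ± 0.303 at high gain and 1.26 ± 0.892 at low gain (a log2 difference of -2.56, SE 0.74), and PNPLA2, the adipose triglyceride lipase gene, at 1.68 ± 1.98 and 5.49 ± 2.50 (-2.35, SE 0.98). PNPLA6 was at 1.14 ± 1.23 and 3.09 ± 1.49, CERS4 at 0.185 ± 0.239 and 0.816 ± 0.686, and DEGS2, which makes the phytoceramides of epithelia, at 3.61 ± 3.76 and 8.92 ± 3.81. ELOVL1, whose region is its first exon, was at 2.30 ± 2.42 and 5.81 ± 2.80, SLC27A1 at 0.966 ± 0.968 and 1.76 ± 0.743, and FADS3 at 1.69 ± 2.34 and 3.27 ± 2.46. PTGIS was at 0.398 ± 0.271 and 0.681 ± 0.339, and PTGDS at 2.57 ± 2.16 and 5.16 ± 2.99. Among the genes named for their unadjusted p by gain, those with higher estimates at high gain were PLA2G12A and UGCG. PLA2G12A was at 5.65 ± 1.14 and 4.91 ± 2.29, and UGCG, the glucosylceramide synthase gene, at 6.53 ± 2.07 and 5.19 ± 2.06. With the 5 libraries of thin first exons left out, the gain difference was -0.28 for PTGDS, -0.19 for PTGIS, -1.12 for PNPLA2, -0.67 for PNPLA6, -0.78 for ELOVL1, -0.56 for SLC27A1 and -0.90 for DEGS2. In all 16 libraries these were -1.35, -0.71, -2.35, -2.22, -2.12, -1.14 and -1.90 in the same order. Other genes named for gain moved less, to -2.01 for LTC4S, -1.45 for FADS3, -1.14 for CERS4, 0.34 for PLA2G12A and 0.35 for UGCG. Their values in all 16 libraries were -2.56, -1.64, -1.60, 0.26 and 0.34.

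**Figure D4:**
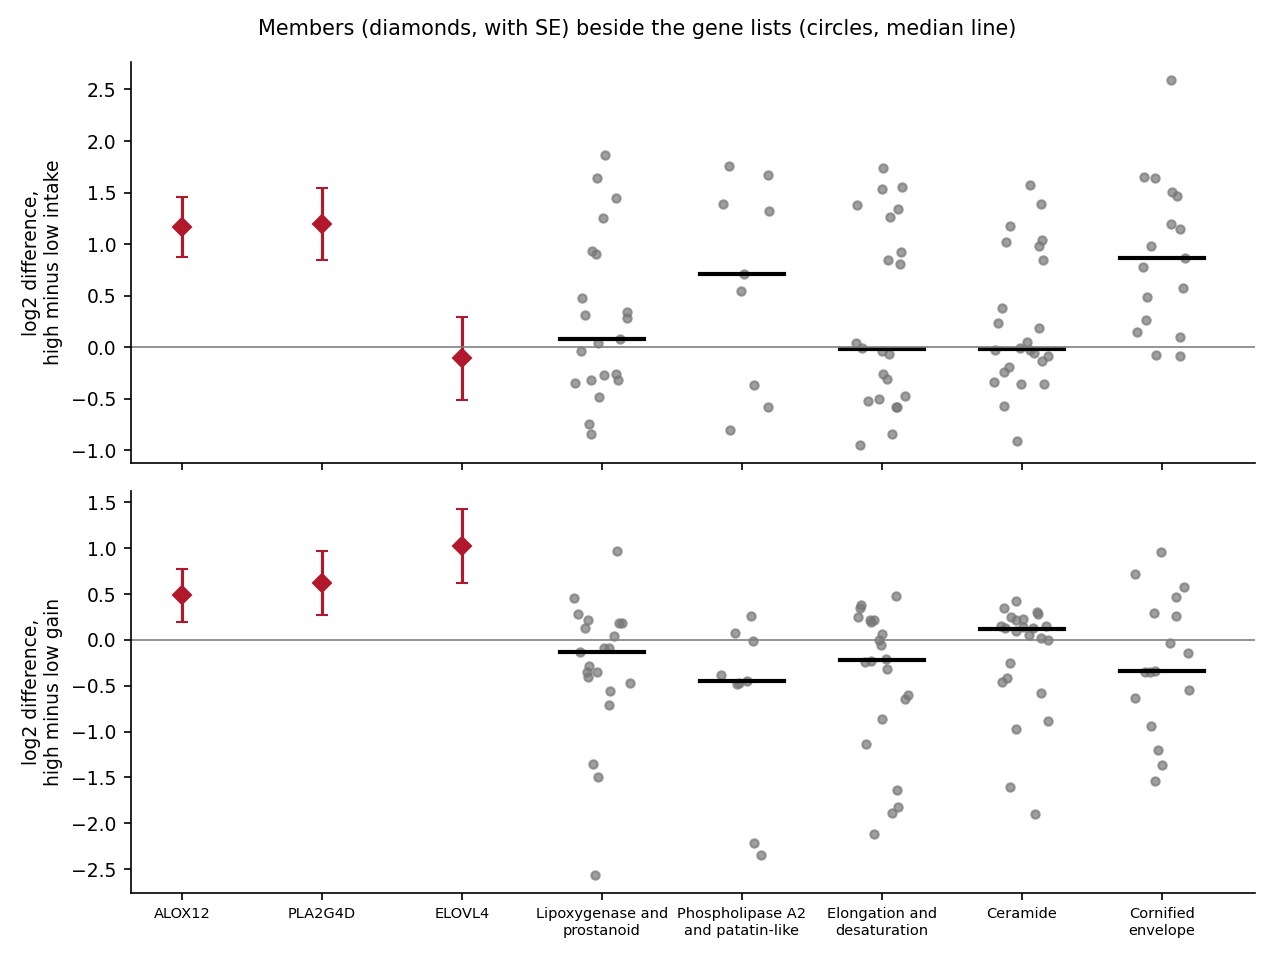
Log2 difference between high and low intake (top) and between high and low gain (bottom) for the 3 genes (diamonds with the SE of the model) and for the tested genes of 5 lists (circles, with the list median as a line). ALOX12 and PLA2G4D lie at 1.17 and 1.20 for intake, and ELOVL4 lies at -0.11 there and at 1.02 for gain.

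Markers of the surface layers had higher estimates at high intake, as ALOX12 and PLA2G4D did. Of 17 tested genes of the cornified envelope, 15 were estimated higher at high intake (median log2 0.86), beside 49.6% of all tested genes. None of them passed after adjustment. With an unadjusted p under 0.05, 2 were higher, beside 2.47% of all genes. Their summed level, over 18 markers, was 369 to 983 with high intake and 81.5 to 858 with low intake, and LOR was at 0 in 15 of 16 libraries. TGM1, the transglutaminase of the envelope, was at 39.6 ± 14.8 and 23.2 ± 18.0 (SD, n = 8 each). Of 8 basal epithelial genes, 5 were estimated higher at high intake (median 0.44), with a summed level of 343 to 1311 with high intake and 197 to 1268 with low intake. With the 5 libraries of thin first exons left out, the medians were 0.40 for cornified, -0.15 for basal and -0.68 for stromal genes. Of 11 collagen and stromal genes, 3 had higher estimates (median -0.65), with a summed level of 225 to 466 with high intake and 287 to 1249.6 with low intake. Of the 11, 6 were lower with an unadjusted p under 0.05, beside 5.81% of all genes. The part of cell layer composition in the differences of ALOX12 and PLA2G4D was not tested.

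Other cell types gave smaller sums. Of the platelet markers, which are of interest for ALOX12, 3 had an exon region. PF4 was at 0 in 14 of 16 libraries, ITGA2B (mean 0.536) in 4 and ITGB3 (mean 1.01) in 1. The summed level of these 3 markers was 0.66 to 2.49 with high intake and 0.56 to 3.07 with low intake. A part of platelets in the ALOX12 level was not tested. Leukocyte markers summed to 33.9 to 57.9 with high intake and 19.5 to 48.5 with low intake (6 of 9 tested genes higher, median 0.64), with CD8A at 0 in 11 and CPA3 in 15 libraries. Endothelial markers summed to 13.0 to 37.6 with high intake and 14.4 to 42.5 with low intake (4 of 10 higher, median -0.08), and smooth muscle markers to 10.1 to 52.7 and 21.8 to 119 (4 of 9 higher, median -0.21). In the 11 libraries with better covered first exons, the intake medians were 0.09 for leukocyte genes (5 of 9 higher), -0.45 for endothelial genes (1 of 10 higher) and -0.22 for smooth muscle genes (1 of 9 higher). By gain, 6 of 17 cornified genes had higher estimates (median -0.34), 3 of 8 basal genes (-0.47), 1 of 11 stromal genes (-0.46), 0 of 10 endothelial genes (-0.63), 0 of 9 smooth muscle genes (-1.29), 4 of 9 leukocyte genes (-0.03) and 0 of 2 platelet genes (-0.66). Over all tested genes, 46.1% had higher estimates at high gain. The leukocyte median by gain was 0.22 (7 of 9 higher) in the 11 libraries with better covered first exons.

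Introns gave a further view of the same genes. Coverage over the intron-only regions, weighted by length, was 0.184, 0.132, 0.718 and 0.299 for ALOX12 in HGHI, 0.112, 0.169, 0.129 and 0.0822 in HGLI, 0.162, 0.341, 0.163 and 0.122 in LGHI and 0.173, 0.106, 0.0473 and 0.102 in LGLI. The animal with the highest exon coverage of ALOX12, HGHI replicate 3, thus also had its highest intron coverage. For PLA2G4D intron coverage was at most 0.263 and for ELOVL4 at most 0.207, both in that same animal.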

How the data were processed

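Polyadenylated RNA of papillae was read as single reads of 50 bases, 1 library per steer. TopHat2 2.08b and UMD3.1 are named per the submitters' processing notes, and the coverage tool is not given in the sources used here. Signal values, as deposited by the authors, are a region's mean coverage per base multiplied by a library factor. This is inferred from the values, since coverage times length adds up to 591.1 to 595.9 Mb per library. The authors' deposited p-value, fold ratio, log2 and summary columns were not used. Columns were matched to animals by the number in each title. Of 2351373 regions, 113576 held exons, and 553 that span more than 1 gene were dropped. A gene was tested if 4 or more libraries reached 0.5, which 9445 of 12010 did, the 3 members among them. limma 3.58.1 in R 4.3.3 (trend and robust options) fitted 4 group means to log2(value + 0.1), two-sided, with Benjamini-Hochberg adjustment over all tested genes. The script was tested on simulated data, with 100 genes changed by a log2 of 1 and 100 by a log2 of 3 for intake. At the threshold it recovered 32% of the former and 76% of the latter, with 8 false calls. A gene that did not pass is therefore not shown to be unchanged. Correlations within groups used 100000 permutations. The first-exon index was computed on single-exon regions averaging 2 or more in genes with 6 or more exons; libraries below -1.5 are called low.

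Reads were estimated from the value of 1 read over 50 bases, which is the most common value of such regions seen in 1 library. Members and lists were chosen with earlier results of these data known. Named list genes are the 3 with the smallest unadjusted p per lipid list for intake and for gain. The 5 genes with the highest r are named for each member, and other lipoxygenase genes and markers were named after their values were seen. Replicates are numbered in accession order, and no label names a batch. 1 marker gene is not reported here. Alternatives changed the pseudocount, filter, gene level, scaling, limma options and libraries used.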

Additional observations from a re-analysis of the deposited data

Results flagged for a closer look

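By Dixon's gap test in groups of 4, no member's level was marked in any of the 4 groups. ELOVL4 in HGHI replicate 3, at 3.40 against 1.09 to 1.55 in the other 3, was not marked. The first-exon index of 2 libraries was marked: HGHI replicate 4 was at -2.855, against -1.068 to -0.705 in the other 3, and LGLI replicate 3 was at -2.887, against -0.47 to -0.349 in the other 3. Over 16 sets of 4 values tested, chance alone marks about 1 in 20. In these 2 libraries ALOX12 was at 7.47 and 1.35, PLA2G4D at 4.96 and 0.52, and ELOVL4 at 1.55 and 0.68.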

How the results depend on the processing

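The differences of the 3 genes were computed under 10 other settings and with each of 16 libraries left out. The widest shifts were larger than the SE: 0.49 (SE 0.29) for ALOX12 by gain became 0.05 over all exon regions, and 1.20 (SE 0.35) for PLA2G4D by intake became 0.68 without the 5 libraries with thin first exons. The intake difference ran from 0.83 to 1.27 for ALOX12, from 0.68 to 1.30 for PLA2G4D and from -0.16 to -0.01 for ELOVL4 over the settings, and with 1 library left out from 1.02 to 1.32, from 1.05 to 1.33 and from -0.43 to 0.14. The gain difference ran from 0.05 to 0.75, from 0.43 to 0.78 and from 0.64 to 1.13 over the settings, and with 1 library left out from 0.33 to 0.62, from 0.48 to 0.77 and from 0.78 to 1.35. The interaction ran from -0.38 to -0.14 for ALOX12, from -0.32 to 0.22 for PLA2G4D and from 0.19 to 0.57 for ELOVL4 over the settings, and with 1 library left out from -0.58 to 0.03 for ALOX12, from -0.11 to 0.46 for PLA2G4D and from -0.11 to 1.01 for ELOVL4. None of the 3 correlations within groups passed under the 5 other settings run for them; with 1 library left out r ran from 0.036 to 0.572 for ALOX12 and PLA2G4D, from 0.213 to 0.46 for ALOX12 and ELOVL4 and from -0.243 to 0.366 for PLA2G4D and ELOVL4.

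Counts over all genes changed more. For intake 2 genes passed over all exon regions, and with 1 library left out 0 to 1 did, the 1 without HGHI replicate 4. For gain 61 genes passed without the 5 libraries with thin first exons, 834 with the first-exon index as a covariate and 0 to 70 with 1 library left out, the 70 without LGLI replicate 3. Of these, all 61 were lower at high gain, and 715 of the 834 were higher. The cause was not tested. The interaction gave 0 genes under all of these. Scaling by exon coverage moved the median of all genes to 0.08 for gain and -0.12 for the interaction, and scaling by the median ratio moved it to 0.10 for intake. Scaled by exon coverage, the split of unadjusted calls for gain was 318 higher and 306 lower, against 92 and 409 as deposited. The list medians under these settings were added after seeing the data. Low reads in 5′ regions limit what single exons can show. No paired analysis was possible because replicate numbers here follow accession order and pair no animals.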
